A study of Homo sapiens with 15 samples.

Results

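The hypoxia and glycolysis genes are 38 gene symbols drawn by name from the 25681 symbols in the count tables of a synovial sarcoma line. The symbols were listed by name, with earlier results of these data known. Each is read from 1 transcript row, the one with the highest count summed over all 15 libraries. They comprise 4 genes of oxygen sensing, 4 of secreted factors and carbonic anhydrases, 3 membrane transporters of glucose or lactate, 16 glycolytic enzymes, 3 switches of glycolytic flux, 2 mitophagy receptors, 2 collagen prolyl hydroxylases and 4 further hypoxia targets. HSSYII is an established human synovial sarcoma line that carries the SS18-SSX1 fusion, an abnormal subunit of the BAF chromatin remodelling complex, and every group was made in this 1 line. RNA of whole cultures was sequenced in 5 groups of 3 libraries, in 2 experiments. In the first, cultures were exposed over 6 hr to 100 nM of dBRD9-A or to its vehicle DMSO. The compound recruits the BAF subunit BRD9 to cereblon, a ubiquitin ligase component, so that BRD9 is degraded. In the second, cells received a GFP-tagged lentivirus carrying shSS18-SSX1-1 or shSS18-SSX1-2, a pair of hairpins against the fusion, or shRenilla, a control hairpin against a luciferase that human cells lack. These cultures were collected 96 hr after infection with no drug selection, so cells without a hairpin may be present in all of them. The sources used here name no low-oxygen treatment in any group.

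When oxygen is low, the prolyl hydroxylases EGLN1 and EGLN3 can no longer mark the alpha subunits HIF1A and EPAS1 (HIF-2 alpha) for destruction, and the stabilised proteins switch on genes for blood vessel growth, acid handling and glucose use. HIF1A is best known for glycolytic enzymes and mitophagy receptors, and EPAS1 for a narrower set that depends more on the cell type. Both alpha subunits are controlled mainly at the protein level, which mRNA counts do not show. Many tumours run glycolysis at a high rate with oxygen present, and glycolytic enzyme mRNAs are among the abundant transcripts of cultured cells.

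Library totals ran between 18580419 and 27031647 counts. Levels are given as CPM, the usual count per library scaled to a common total, after trimmed-mean scaling over all 15 libraries, and fold changes come from edgeR's quasi-likelihood test within each experiment, with Benjamini-Hochberg adjustment over all genes tested and a threshold of 0.05. Whether the 3 libraries of a group stem from different cultures is not stated in the labels, and each p-value therefore reflects only how these libraries scatter, which may be technical. In the first experiment the libraries lay close together, with a biological coefficient of variation of 2.78%, against 8.91% in the second. The library shRenilla replicate 1 stood apart. Against replicates 2 and 3 it gave a chi-square per degree of freedom of 36.5 and 27, whereas no other pair within a group of that experiment exceeded 9.85. SSX1, a partner gene of the fusion, had 20.9, 20.7 and 18.7 CPM in shSS18-SSX1-1, 29.0, 29.2 and 27.8 CPM in shSS18-SSX1-2, and 77.0, 58.5 and 55.1 CPM with shRenilla. SS18, the other partner, had 109 to 112 CPM in shSS18-SSX1-1, 121 to 128 CPM in shSS18-SSX1-2, and 157 to 180.0 CPM with shRenilla. In bulk RNA, fewer cells of a kind and less RNA per cell cannot be told apart, and trimmed-mean scaling cannot show a change shared by all genes.

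After knockdown of the fusion for 96 hr, the RNA of CA12, ADM and SLC2A3 was at least 2.83-fold higher than with shRenilla. These genes of a carbonic anhydrase, a vessel peptide and a glucose transporter passed the test, while HIF1A, LDHA, PGK1, HK2 and PDK1 did not. EPAS1 was 51.8-fold higher in the fit, which is given as a description only. It had 5, 9 and 7 counts in the shRenilla libraries and passed the filter on low counts through the hairpin groups. After 6 hr of dBRD9-A the largest change among members that passed the test was a 1.65-fold higher level of NDRG1, and the other members that passed differed by less than 1.5-fold. The 5 synovial sarcoma markers were present in all groups, with sums of 755 to 793 CPM with dBRD9-A and 775 to 816 CPM with DMSO, and of 421 to 464 CPM with the hairpins and 535 to 555 CPM with shRenilla. After knockdown SSX1, SS18 and BCL2 were lower and TLE1 and TWIST1 did not pass, with a median of -0.56. SSX1 and SS18 are the partner genes of the fusion that the hairpins target. The lower sum and the median therefore include the knockdown itself and do not measure a loss of the markers.

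**Figure D1:**
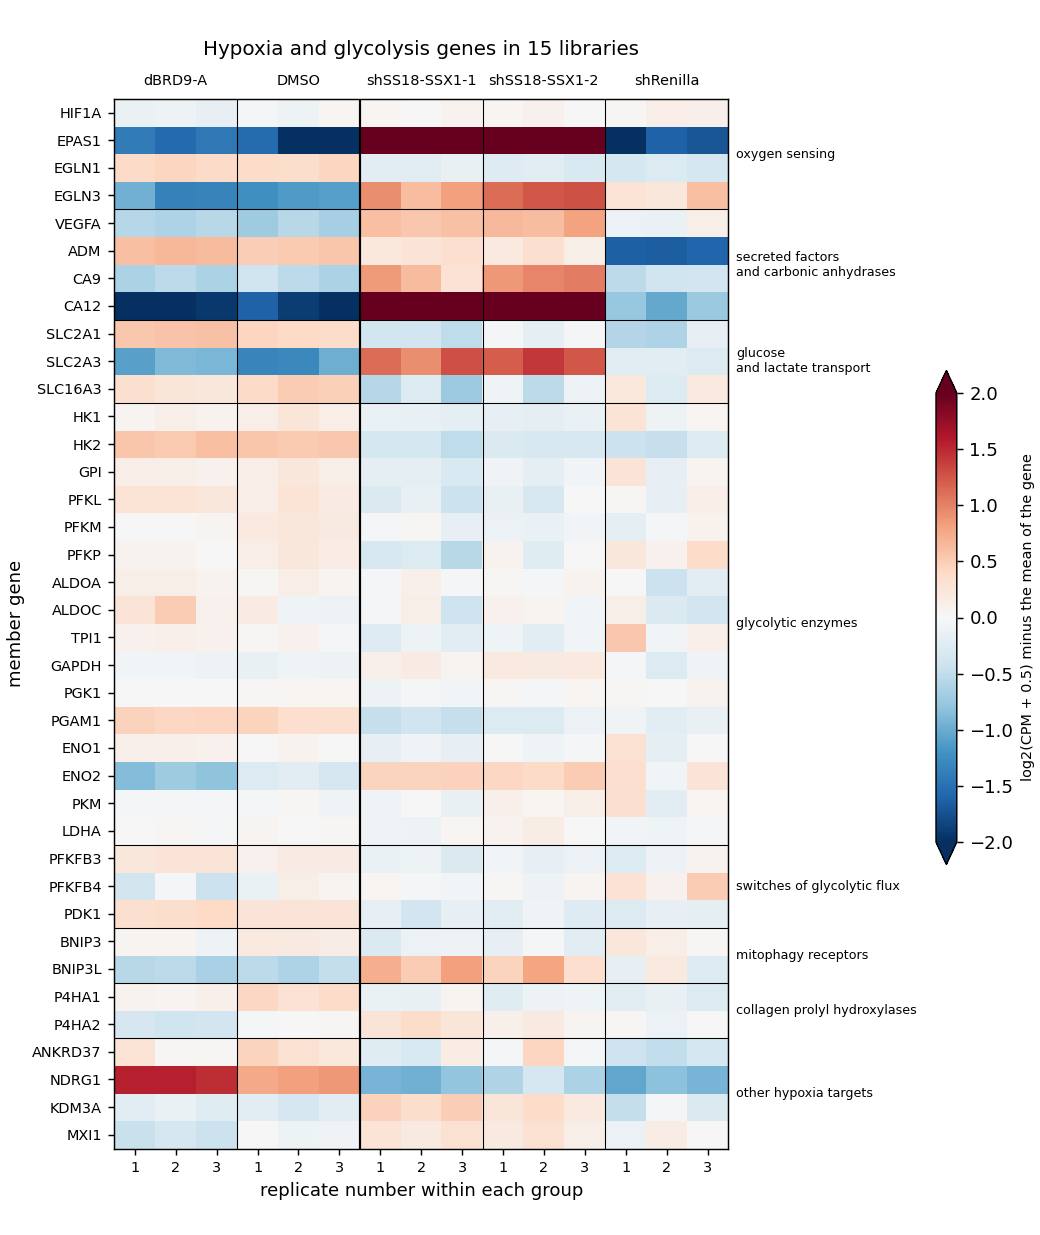
Level of each of the 38 members (rows, grouped by role) in each of the 15 libraries (columns, grouped), as log2(CPM + 0.5) minus the mean of that gene over the 15 libraries, with colours limited at 2 either way. EPAS1 and CA12 are darkest in the 6 hairpin libraries, and NDRG1 in the 3 dBRD9-A libraries.

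EPAS1 lies on chromosome 2 (GRCh37, chr2:46520806-46613836, forward strand), CA9 on chromosome 9 (chr9:35673925-35681156, forward strand) and CA12 on chromosome 15 (chr15:63613577-63674045, reverse strand). The HIF proteins bind with ARNT at hypoxia response elements, whose core is ACGTG or GCGTG. The 3 members with the largest knockdown changes that hold this core within 250 bases before the RefSeq start are shown here. They were picked by those changes, and a part of the HIF proteins in them was not tested. The capitals mark the core on either strand, with CACGT and CACGC as its reverse complements. Each sequence is from RefSeq, build GRCh38.p14, and reads in the direction of transcription.
EPAS1 (chr2:46297157-46297406, forward strand): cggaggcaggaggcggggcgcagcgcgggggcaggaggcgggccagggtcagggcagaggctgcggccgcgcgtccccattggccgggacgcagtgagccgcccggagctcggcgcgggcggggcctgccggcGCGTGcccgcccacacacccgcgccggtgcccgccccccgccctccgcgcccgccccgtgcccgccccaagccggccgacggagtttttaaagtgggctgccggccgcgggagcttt
CA9 (chr9:35673678-35673927, forward strand): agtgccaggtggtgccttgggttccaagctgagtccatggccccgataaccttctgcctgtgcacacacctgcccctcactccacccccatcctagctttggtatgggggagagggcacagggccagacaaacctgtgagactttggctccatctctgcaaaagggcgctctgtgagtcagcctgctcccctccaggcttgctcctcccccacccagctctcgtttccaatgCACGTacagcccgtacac
CA12 (chr15:63381847-63382096, reverse strand): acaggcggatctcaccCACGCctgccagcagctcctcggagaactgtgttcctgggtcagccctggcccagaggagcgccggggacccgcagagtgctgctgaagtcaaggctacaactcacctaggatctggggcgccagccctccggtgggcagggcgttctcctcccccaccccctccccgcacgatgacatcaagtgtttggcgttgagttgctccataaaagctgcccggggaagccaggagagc
The core begins 117 bases before the start in EPAS1, 18 bases before it in CA9 and 234 bases before it in CA12. Of the 38 members, 34 matched the promoter table, with 64 promoters between them, and 39 of these (60.9%) held the core on either strand. Of all 35116 promoters in that table, 15172 (43.2%) held it. A match is a description of the letters and does not show that a factor binds there.

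Counted over the whole list, 14 members were higher and 9 lower after SS18-SSX1 knockdown, taken as the mean of both hairpins against shRenilla, and 15 did not pass the test. Of all 14269 genes tested, 22.5% were higher and 22.1% lower. Past 1.5-fold, 9 members were higher and 0 lower, against 12.5% higher and 5.9% lower of all genes tested. EPAS1 and CA9 are among these 9, as a description for the reason given below. At an unadjusted p under 0.05, 16 members were higher and 9 lower, none of the lower ones past 1.5-fold. No share of all genes at that threshold stands beside these counts. The median log2 fold change was 0.08 over the 38 members and -0.01 over all genes. EPAS1 and CA9 averaged under 10 counts in a shRenilla library and passed the filter on low counts through the hairpin groups; among the other 36 members, 12 were higher and 9 lower, with a median of 0.07. The count of lower members moved with single libraries. Lower calls over all genes also fell in the removals that follow, from 3153 to between 2503 and 2720. Leaving out shRenilla replicate 1 gave 3, leaving out shRenilla replicate 3 gave 4, and 5 were lower without shSS18-SSX1-1 replicate 3, shSS18-SSX1-2 replicate 1 or shSS18-SSX1-2 replicate 2. The count of higher members was 11 to 14 over the same removals.

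Among the genes of oxygen sensing, the 2 alpha subunits differed in response. EPAS1 had 13.4, 11.7 and 14.8 CPM in shSS18-SSX1-1, 21.2, 20.9 and 16.5 CPM in shSS18-SSX1-2, and 0.189, 0.404 and 0.339 CPM with shRenilla. All 6 hairpin libraries lay far above the 3 shRenilla libraries, which held 5, 9 and 7 EPAS1 counts. The ratio of summed counts, set against the library sizes, was 55.0 with a 95% exact interval of 35.9 to 89.0 for counting error only. The fitted log2 fold change of 5.70 is given as a description, since EPAS1 entered the fit through the hairpin groups. HIF1A, the alpha subunit found in most cells, had 162, 156 and 165 CPM in shSS18-SSX1-1, 161, 166 and 158 CPM in shSS18-SSX1-2, and 159, 172 and 169 CPM with shRenilla. These ranges overlapped, and the log2 fold change of -0.06 (SE 0.06) did not pass the test (edgeR adjusted p = 0.417). EGLN3, an oxygen sensor that is itself a HIF target, had 1.62 to 2.13 CPM in shSS18-SSX1-1, 2.50 to 2.82 CPM in shSS18-SSX1-2, and 1.12 to 1.6 CPM with shRenilla. It was low in every library and its groups did not overlap, with a log2 fold change of 0.80 (SE 0.17, edgeR adjusted p = 0.00191). EGLN1, the main oxygen sensor of most cells, was 104 to 116 CPM with the hairpins and 101 to 107 CPM with shRenilla, and did not pass the test.

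In the group of secreted factors and carbonic anhydrases, CA12, ADM and VEGFA passed the test as higher, against 22.5% of all genes tested. CA9 passed the filter on low counts through the hairpin groups, so its higher level is a description. CA12, a membrane enzyme that turns carbon dioxide into bicarbonate and acid outside the cell, had 97.5, 86.9 and 100.3 CPM in shSS18-SSX1-1, 73.9, 75.5 and 71.9 CPM in shSS18-SSX1-2, and 8.91, 7.31 and 8.95 CPM with shRenilla. Its groups were widely apart, and its log2 fold change was 3.30 (SE 0.10, edgeR adjusted p = 1.18e-11). CA9, the related enzyme used as a marker of tumour hypoxia, stayed near 1 CPM or below, at 0.906, 0.702 and 0.452 CPM in shSS18-SSX1-1, 0.909, 1.02 and 1.08 CPM in shSS18-SSX1-2, and 0.0377, 0.0897 and 0.0968 CPM with shRenilla. The shRenilla libraries together held 5 CA9 counts against 111 in the hairpin libraries, a ratio of 11.7 with a 95% exact interval of 4.87 to 36.7. Exons of CA9 overlap those of ARHGEF39 on the opposite strand, which ran at 36.4 to 42.0 CPM with the hairpins and 40.7 to 44.7 CPM with shRenilla, and reads of the overlap cannot be assigned without strand. ADM encodes adrenomedullin, a peptide that widens blood vessels. It had 128, 132 and 140 CPM in shSS18-SSX1-1, 126, 137 and 119 CPM in shSS18-SSX1-2, and 35.1, 34.8 and 36.2 CPM with shRenilla, a log2 fold change of 1.87 (SE 0.07, edgeR adjusted p = 2e-10). VEGFA, the main growth factor of blood vessels, had 43.4, 41.4 and 42.7 CPM in shSS18-SSX1-1, 44.6, 44.1 and 50 CPM in shSS18-SSX1-2, and 26.2, 25.7 and 31.0 CPM with shRenilla. The groups of both genes did not overlap, and VEGFA changed by 0.67 on the log2 scale (SE 0.08, edgeR adjusted p = 1.46e-05).

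**Figure D2:**
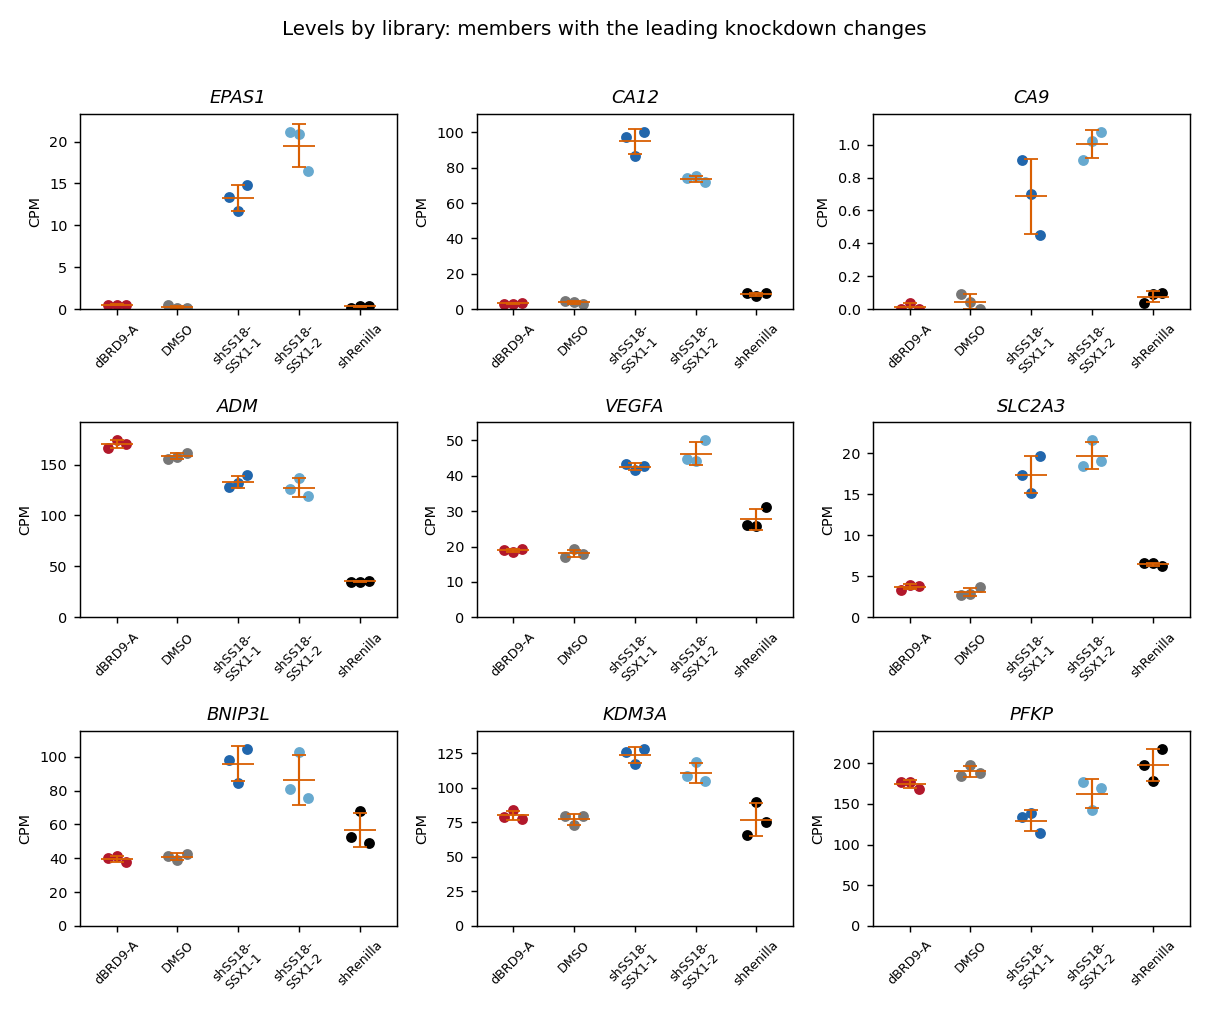
CPM by library (points) with mean and SD (orange) for 9 members in the 5 groups, each axis starting at 0. EPAS1 is between 11.7 and 21.2 CPM in the 6 hairpin libraries and under 1 CPM in the other 9, whereas the higher ADM level of the hairpin libraries stands against a shRenilla level far below that of DMSO.

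The transporters split. SLC2A3, the high-affinity glucose transporter GLUT3, had 17.3, 15.1 and 19.7 CPM in shSS18-SSX1-1, 18.5, 21.6 and 19.0 CPM in shSS18-SSX1-2, and 6.57, 6.59 and 6.29 CPM with shRenilla. Every hairpin library exceeded every shRenilla library, and the log2 fold change was 1.5 (SE 0.11, edgeR adjusted p = 9.36e-08). SLC2A1, the widespread transporter GLUT1, had 22.7, 22.5 and 20.6 CPM in shSS18-SSX1-1, 28.7, 26.1 and 29.1 CPM in shSS18-SSX1-2, and 19.4, 19.1 and 26.3 CPM with shRenilla. The shRenilla libraries spanned the range of the first hairpin, and the log2 fold change of 0.19 (SE 0.10) did not pass (edgeR adjusted p = 0.158); without shRenilla replicate 3 it was 0.36 and passed (adjusted p = 0.00659). SLC16A3, which carries lactate out of the cell, was 59.5 to 81.7 CPM in shSS18-SSX1-1, 68.5 to 93.1 CPM in shSS18-SSX1-2, and 81.8 to 114 CPM with shRenilla. It was lower by -0.45 on the log2 scale (edgeR adjusted p = 0.0113) with overlapping groups, but leaving out shRenilla replicate 1 (adjusted p = 0.0605) or 3 (adjusted p = 0.0706) ended the call.

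The 16 glycolytic enzymes showed small shifts, between -0.47 and 0.25 on the log2 scale. GAPDH and ENO2 were higher, HK1, GPI, PFKL, PFKP, TPI1 and PGAM1 were lower, and 8 did not pass the test, with a median of -0.07. PFKP, the platelet form of phosphofructokinase, had 134, 139 and 114 CPM in shSS18-SSX1-1, 176, 142 and 170 CPM in shSS18-SSX1-2, and 198, 178 and 218 CPM with shRenilla. Its groups did not overlap, although shSS18-SSX1-2 replicate 1 came close to shRenilla replicate 2, and its log2 fold change was -0.47 (SE 0.09, edgeR adjusted p = 0.000683). LDHA, which makes lactate, had 724, 706 and 776 CPM in shSS18-SSX1-1, 795, 841 and 752 CPM in shSS18-SSX1-2, and 728, 716 and 736 CPM with shRenilla. Its log2 fold change of 0.06 (SE 0.06) did not pass (edgeR adjusted p = 0.471). PGK1, PKM, ENO1 and HK2, which act along the same path, were at -0.06, -0.08, -0.16 and 0.01 and did not pass the test.

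The shRenilla libraries varied among themselves in these enzymes. Replicate 1 was the highest of the 3 shRenilla libraries for 10 of the 16 enzymes, and replicate 2 was the lowest for 14. TPI1, the triose isomerase, was 970 CPM in shRenilla replicate 1, 648 CPM in replicate 2 and 721 CPM in replicate 3, against 559 to 643 CPM in the hairpin libraries. Without shRenilla replicate 1, 3 enzymes were higher (ALDOA, GAPDH and ENO2) and 2 lower (PFKP and TPI1), with a median of -0.02. Without shRenilla replicate 2, 1 was higher (GAPDH) and 7 lower, with a median of -0.12. Without shRenilla replicate 3, shSS18-SSX1-1 replicate 1, shSS18-SSX1-1 replicate 3, shSS18-SSX1-2 replicate 1 or shSS18-SSX1-2 replicate 2, 3 were lower in each case. GAPDH, PFKP and TPI1 passed the test in the same direction under each of the 9 removals. HK1 failed it only without shRenilla replicate 1, and ENO2 without shRenilla replicate 2 or shSS18-SSX1-2 replicate 3. GPI, PFKL and PGAM1 failed it without shRenilla replicates 1 or 3, shSS18-SSX1-1 replicates 1 or 3, or shSS18-SSX1-2 replicates 1 or 2, and GPI also without shSS18-SSX1-1 replicate 2. Near-identical gene copies exist for GAPDH, PGK1, PGAM1, ENO1, TPI1, LDHA and ALDOA, so their counts depend on how reads with several matches were placed.

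**Figure D3:**
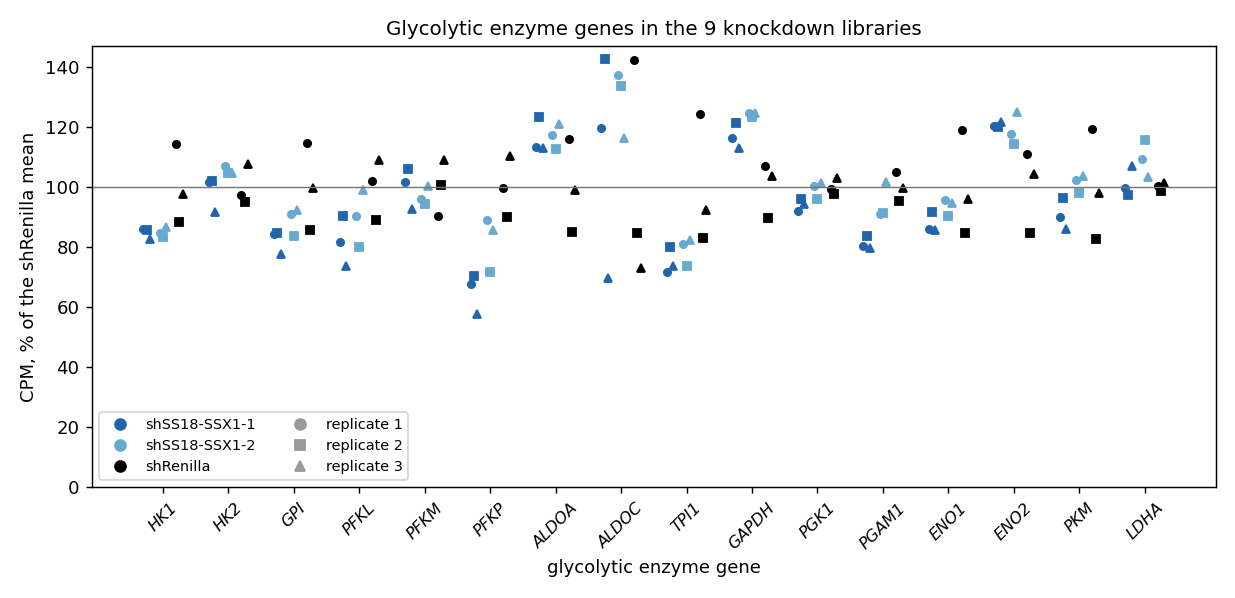
CPM of the 16 glycolytic enzymes in the 9 libraries of the knockdown experiment as a percentage of the shRenilla mean (line at 100%), by group (colour) and replicate (marker). shRenilla replicate 1 (black circle) is above the other shRenilla libraries for 10 enzymes, among them TPI1, ENO1 and PKM.

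Among the switches of glycolytic flux, PDK1, which inhibits pyruvate dehydrogenase, had 28.2, 24.1 and 28.2 CPM in shSS18-SSX1-1, 27.5, 30.3 and 26.6 CPM in shSS18-SSX1-2, and 26.2, 28.3 and 28.1 CPM with shRenilla. Its groups overlapped and its log2 fold change was -0.02 (SE 0.08, edgeR adjusted p = 0.893). PFKFB3 did not pass the test, and PFKFB4, at 3.78 to 4.26 CPM with the hairpins and 4.35 to 6.05 CPM with shRenilla, was lower by -0.37 (edgeR adjusted p = 0.0274). PFKFB4 failed the test without shRenilla replicates 1 or 3, shSS18-SSX1-1 replicates 2 or 3, or shSS18-SSX1-2 replicates 1 or 2. Both enzymes make the sugar phosphate that activates phosphofructokinase. The 2 mitophagy receptors moved in opposite directions. BNIP3L had 98.4, 84.5 and 105 CPM in shSS18-SSX1-1, 80.9, 103 and 75.4 CPM in shSS18-SSX1-2, and 52.9, 68.0 and 49.2 CPM with shRenilla. All hairpin libraries were higher, with a log2 fold change of 0.67 (SE 0.12, edgeR adjusted p = 0.0005). PNMA2, whose exons overlap BNIP3L on the opposite strand, was 3.44 to 5.45 CPM with the hairpins and 1.34 to 1.55 CPM with shRenilla, and its part was not tested. BNIP3 was lower, at 43.2 to 51.1 CPM with the hairpins and 53.5 to 61.9 CPM with shRenilla (log2 fold change -0.30, edgeR adjusted p = 0.00528).

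Of the remaining targets, KDM3A, a histone H3 lysine 9 demethylase induced by hypoxia, had 126, 118 and 129 CPM in shSS18-SSX1-1, 109, 119 and 105 CPM in shSS18-SSX1-2, and 65.9, 90.1 and 75.2 CPM with shRenilla. The groups did not overlap, and the log2 fold change was 0.59 (SE 0.09, edgeR adjusted p = 0.000112). ANKRD37, P4HA2 and MXI1 also passed the test as higher, at 0.51, 0.22 and 0.20, with edgeR adjusted p of 0.0374, 0.0319 and 0.0395. The groups of MXI1 overlapped. Calls of these 3 genes depended on single libraries: P4HA2 failed the test without shRenilla replicate 2, shSS18-SSX1-1 replicate 2 or shSS18-SSX1-2 replicate 2, and MXI1 without shRenilla replicates 1 or 3, shSS18-SSX1-1 replicates 1 or 3, or shSS18-SSX1-2 replicate 2. ANKRD37 failed it without any 1 of the shRenilla libraries, shSS18-SSX1-1 replicate 3 or shSS18-SSX1-2 replicate 2. P4HA1 (0.09) and NDRG1 (0.22) did not pass; NDRG1 passed without shRenilla replicate 2 (0.30, adjusted p = 0.0371).

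Fibroblast markers moved in the same libraries. The 11 markers summed to 821 to 857 CPM in shSS18-SSX1-1, 1000 to 1050 CPM in shSS18-SSX1-2 and 232 to 287 CPM with shRenilla. Most of the rise lay in COL1A1, with means of 387, 576 and 3.29 CPM in these groups, and COL3A1, with 183, 182 and 6.50 CPM. PDGFRA, at a mean of 216 CPM, made up most of the shRenilla sum. Of the 5 markers tested, COL1A1, COL3A1, FN1 and THY1 were higher and PDGFRA did not pass; of all 11, 5 had no count in the shRenilla libraries, and 6 and 5 stayed under 10 counts in every library of shSS18-SSX1-1 and of shSS18-SSX1-2. The same markers summed to 299 to 311 CPM with dBRD9-A and 322 to 349 CPM with DMSO. Of the 6 tested there, 1 was higher and 2 were lower, and COL1A1 averaged 6.67 CPM with dBRD9-A and 4.13 CPM with DMSO. The 5 endothelial markers summed to 0.906 to 1.11 CPM in shSS18-SSX1-1, 1.23 to 1.89 CPM in shSS18-SSX1-2 and 0 CPM with shRenilla. TEK, the only one of them tested, entered the fit through the hairpin groups, so its levels are given as a description. It had 0.589, 0.918 and 0.944 CPM in shSS18-SSX1-1, 1.04, 1.69 and 1.54 CPM in shSS18-SSX1-2, and no count with shRenilla. The sums of the 5 leukocyte markers were at most 0.973 CPM in any hairpin library and at most 0.377 CPM with shRenilla. The part of these markers in the knockdown changes of the members was not tested.

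Both hairpins were compared with the same 3 shRenilla libraries, so their values are given side by side. With shSS18-SSX1-1, 13 members were higher and 8 lower, against 22% higher and 19.5% lower of all genes. With shSS18-SSX1-2, 13 were higher and 4 lower, against 18.3% higher and 15.9% lower. Among the 36 members without EPAS1 and CA9, which passed the filter on low counts through the hairpin groups, 11 were higher with each hairpin. The lower counts again moved with single libraries: for shSS18-SSX1-1 they were 5 without shRenilla replicate 1, shRenilla replicate 3 or shSS18-SSX1-2 replicate 1, 3 without shSS18-SSX1-1 replicate 1 and 4 without shSS18-SSX1-1 replicate 3. For shSS18-SSX1-2 they were 0 without shSS18-SSX1-2 replicate 3, 1 without shRenilla replicate 1, either of shSS18-SSX1-1 replicates 1 and 2, or either of shSS18-SSX1-2 replicates 1 and 2, 2 without shRenilla replicate 3 and 7 without shRenilla replicate 2. Lower calls over all genes also moved in these removals. They went from 2787 to between 1935 and 2595 for shSS18-SSX1-1, and from 2271 to between 1290 and 2436 for shSS18-SSX1-2. As a description, the log2 fold change of EPAS1 was 5.43 with shSS18-SSX1-1 and 5.96 with shSS18-SSX1-2. That of CA12 was 3.49 with shSS18-SSX1-1 and 3.11 with shSS18-SSX1-2. ADM was at 1.91 with shSS18-SSX1-1 and 1.82 with shSS18-SSX1-2, and SLC2A3 at 1.42 with shSS18-SSX1-1 and 1.58 with shSS18-SSX1-2. NDRG1 and SLC2A1, which did not pass in the mean of both hairpins, passed as higher with shSS18-SSX1-2, at 0.40 and 0.35 (edgeR adjusted p = 0.012 and 0.0327), and not with shSS18-SSX1-1, at 0.04 and 0.02. NDRG1 failed the test for shSS18-SSX1-2 without its replicate 2, and SLC2A1 without shRenilla replicates 1 or 2 or shSS18-SSX1-2 replicates 1 or 3.

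The direct comparison of shSS18-SSX1-2 with shSS18-SSX1-1 called 0 members higher and 0 lower by edgeR's quasi-likelihood test, against 0.119% higher and 0.028% lower of all genes. At an unadjusted p under 0.05, 6 members were positive and 2 negative, again without a share of all genes at that threshold. DESeq2 called 1 higher, EPAS1, and 1 lower, CA12. EPAS1 was 0.53 higher on the log2 scale with the second hairpin (SE 0.13, edgeR adjusted p = 0.136) and CA12 was at -0.39 (SE 0.09, edgeR adjusted p = 0.105), and the 3 libraries of one hairpin did not overlap those of the other for either gene. CA12 passed as lower without shRenilla replicate 1 (-0.38, adjusted p = 0.0312) or replicate 2 (-0.38, adjusted p = 0.0417).

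dBRD9-A for 6 hr was the milder condition. Of the 36 members tested, 5 were higher and 9 lower than with DMSO, against 17.7% higher and 18.2% lower of all 13652 genes tested, and 22 did not pass. Past 1.5-fold there was 1 higher member, NDRG1, and 0 lower, against 2.23% higher and 0.593% lower of all genes. At an unadjusted p under 0.05, 9 members were higher and 11 lower, with no share of all genes at that threshold to set beside them. The median log2 fold change was 0.01 over the members and 0.01 over all genes. Among the 22, EPAS1 and ALDOC were at 1.05 and 0.50 from few counts, and the others lay between -0.31 and 0.28. EGLN3 and CA9 were not tested, with 7 and 1 counts in the dBRD9-A libraries and 8 and 3 in the DMSO libraries. The count of higher members was 8 without DMSO replicate 2, 3 without DMSO replicate 3, 3 without dBRD9-A replicate 1 and 2 without dBRD9-A replicate 2; the count of lower members stayed between 6 and 11, and was 6 without dBRD9-A replicate 3. Fitted with all 15 libraries, whose spread is larger, 1 member was higher (NDRG1) and 4 were lower, and calls over all 14560 genes also dropped, to 737 higher and 763 lower.

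NDRG1, a cytoplasmic stress protein induced by hypoxia and by metal chelation, had 89.7, 89.1 and 84.3 CPM with dBRD9-A and 51.3, 53.6 and 55.7 CPM with DMSO. The lowest dBRD9-A library exceeded the highest DMSO library by a wide margin, and the log2 fold change was 0.72 (SE 0.04, edgeR adjusted p = 2.81e-14). SLC2A1 had 43.4, 44.4 and 44.8 CPM with dBRD9-A and 39.8, 39.1 and 38.1 CPM with DMSO. It was slightly higher without overlap, at 0.18 (SE 0.05, edgeR adjusted p = 0.00245). ADM (0.11), PFKFB3 (0.11) and ENO1 (0.08) were the other members that passed as higher. ADM failed the test without dBRD9-A replicate 2 (adjusted p = 0.0892), ENO1 without DMSO replicates 1 or 3 or dBRD9-A replicates 1 or 2, and PFKFB3 without any 1 library other than DMSO replicate 2.

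Of the 9 lower members, ENO2, the neuronal form of enolase, fell furthest. It had 20.5, 23.1 and 21.5 CPM with dBRD9-A and 31.3, 32.6 and 30.0 CPM with DMSO, a log2 fold change of -0.52 (SE 0.06, edgeR adjusted p = 2.96e-08). Both collagen prolyl hydroxylase subunits, which prepare collagen for its triple helix, were lower without overlap. P4HA2 had 16.4, 15.7 and 15.9 CPM with dBRD9-A and 20.5, 21.1 and 21.3 CPM with DMSO (log2 fold change -0.38, SE 0.06, edgeR adjusted p = 1.7e-05). P4HA1 had 89.3, 88.9 and 91.6 CPM with dBRD9-A and 114, 104 and 110 CPM with DMSO (-0.27, SE 0.04, edgeR adjusted p = 1.46e-06). MXI1, a MYC antagonist that is also a HIF target, had 57.7, 62.1 and 58.3 CPM with dBRD9-A and 77.7, 73.2 and 74.7 CPM with DMSO. It was lower by -0.33 (SE 0.04, edgeR adjusted p = 2.14e-07) without overlap. SLC16A3 had 124, 117 and 116 CPM with dBRD9-A and 128, 141 and 137 CPM with DMSO (-0.18, SE 0.04, edgeR adjusted p = 0.000446). PFKM, the muscle form of phosphofructokinase, had 213, 216 and 223 CPM with dBRD9-A and 247, 251 and 244 CPM with DMSO (-0.18, SE 0.03, edgeR adjusted p = 3.19e-05). BNIP3 (-0.16) and PFKP (-0.12) were also lower, and both failed the test without dBRD9-A replicate 3 (adjusted p = 0.106 for BNIP3 and 0.0613 for PFKP). All dBRD9-A libraries lay below all DMSO libraries for SLC16A3 and PFKM; in the fit of all 15 libraries SLC16A3 (adjusted p = 0.4), PFKM (adjusted p = 0.0811) and SLC2A1 (adjusted p = 0.249) did not pass.

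**Figure D4:**
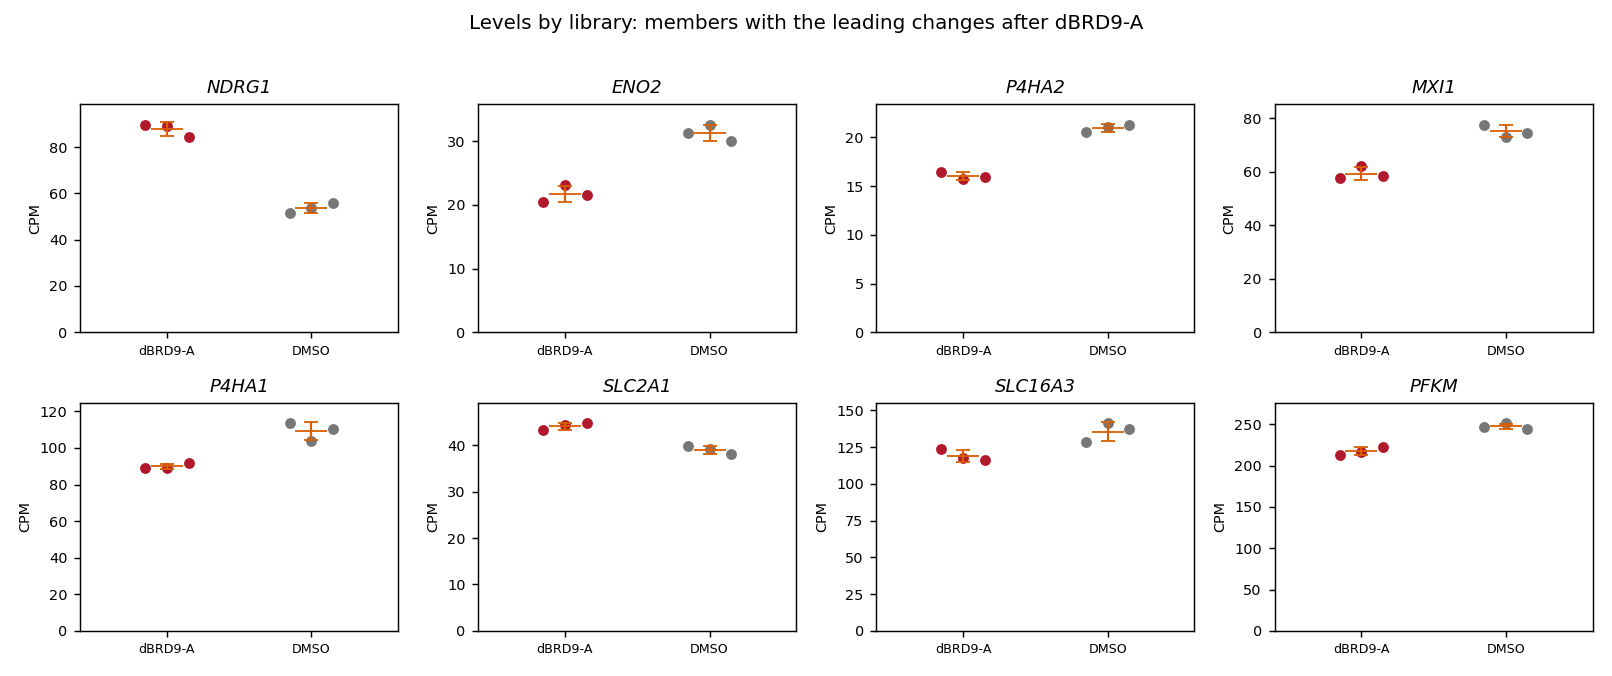
CPM by library (points) with mean and SD (orange) for the 8 members with the largest changes after dBRD9-A among those that passed the test and averaged at least 5 CPM, with each axis starting at 0. NDRG1 and SLC2A1 are higher with dBRD9-A, the other 6 are lower, and no panel has overlapping groups.

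Of the genes that led the knockdown, ADM passed as higher with dBRD9-A, and EPAS1, CA12, VEGFA and SLC2A3 did not pass. EPAS1 had 0.547, 0.440 and 0.522 CPM with dBRD9-A and 0.449, 0.171 and 0.0962 CPM with DMSO, from 36 and 16 counts in all. The groups overlapped through DMSO replicate 1, and the log2 fold change of 1.05 (SE 0.44) did not pass (edgeR adjusted p = 0.0627); without DMSO replicate 1 it was 1.85 (adjusted p = 0.00785), and limma with voom called it (adjusted p = 0.0184). The ratio of summed EPAS1 counts was 2.08, with a 95% exact interval of 1.13 to 4.02. CA12 had 3.11, 2.88 and 3.65 CPM with dBRD9-A and 4.67, 3.77 and 3.12 CPM with DMSO, and did not pass (-0.26, SE 0.15, edgeR adjusted p = 0.164). CA9 had 0, 0.0399 and 0 CPM with dBRD9-A and 0.0898, 0.0428 and 0 CPM with DMSO, a ratio of 0.308 with a 95% exact interval of 0.00588 to 3.84. VEGFA had 18.9, 18.4 and 19.3 CPM with dBRD9-A and 17.1, 19.2 and 17.8 CPM with DMSO, overlapping groups with a log2 fold change of 0.07 (SE 0.07, edgeR adjusted p = 0.431).

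Of the other genes named throughout, HIF1A had 142, 146 and 139 CPM with dBRD9-A and 154, 145 and 160 CPM with DMSO. The groups overlapped; it passed as lower (-0.10, SE 0.04, edgeR adjusted p = 0.0347), but failed the test without DMSO replicate 3 (adjusted p = 0.174), dBRD9-A replicate 1 (adjusted p = 0.102) or dBRD9-A replicate 3 (adjusted p = 0.136). LDHA had 757, 772 and 742 CPM with dBRD9-A and 782, 761 and 767 CPM with DMSO, and did not pass (-0.02, SE 0.03, edgeR adjusted p = 0.631). PDK1 had 39.8, 40.9 and 42.2 CPM with dBRD9-A and 38.04, 38.02 and 38.13 CPM with DMSO. Its groups did not overlap, yet its log2 fold change of 0.11 (SE 0.05) did not pass (edgeR adjusted p = 0.0674).

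**Figure D5:**
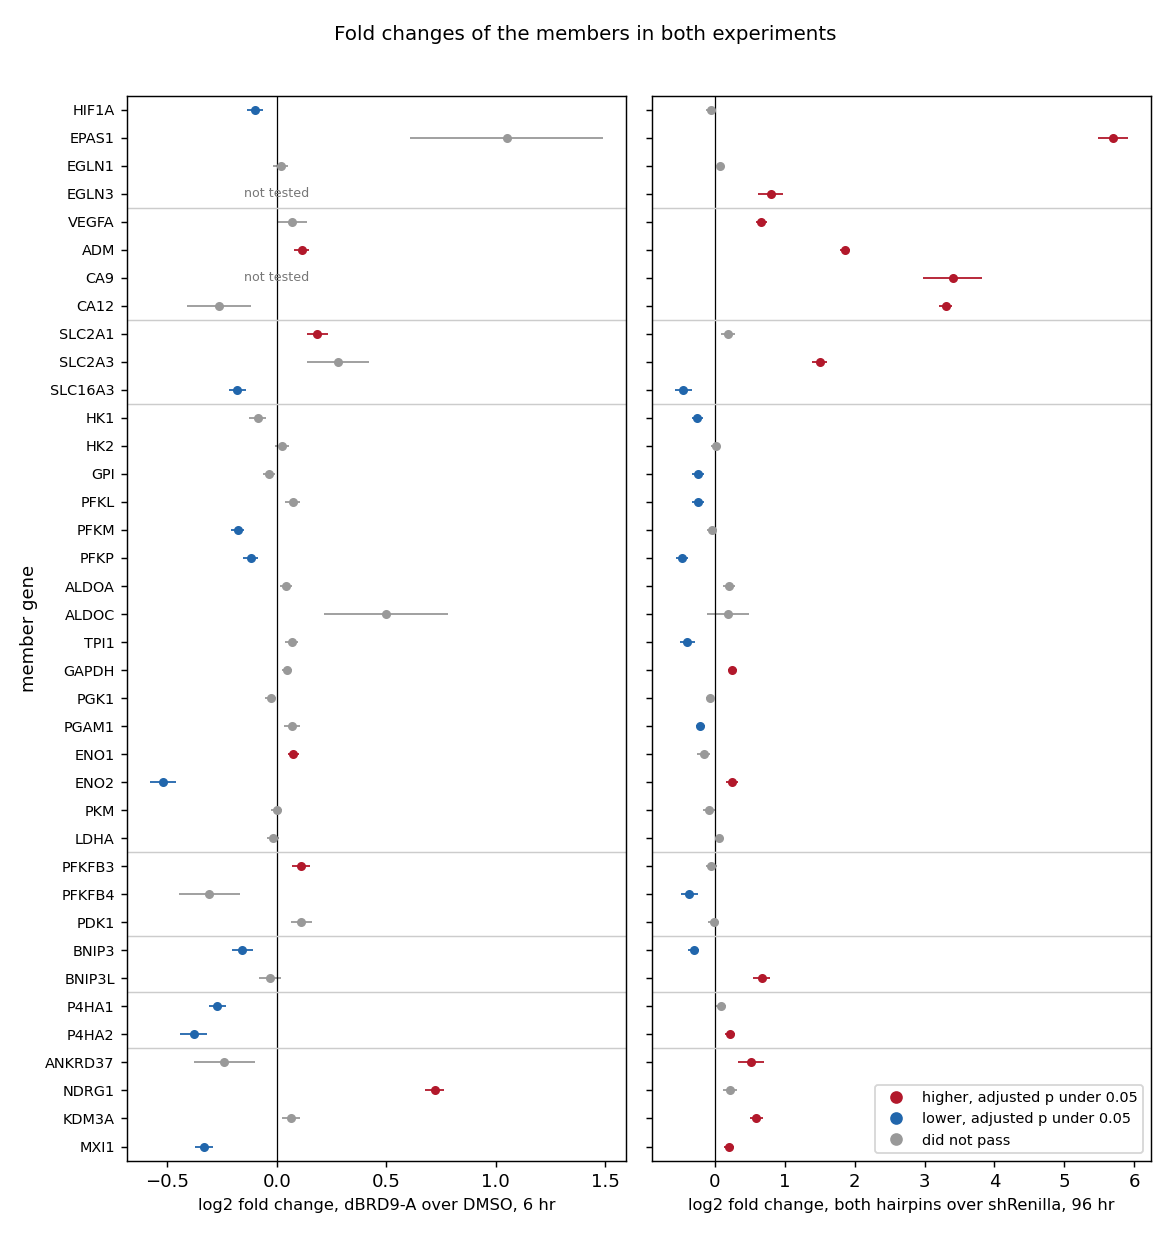
Log2 fold change (point) and SE (bar) of the members, ordered by role, for dBRD9-A over DMSO (left) and for the mean of both hairpins over shRenilla (right), on separate scales. The left panel stays within about 0.7 of 0 for members that passed the test, and the right panel reaches 5.70 at EPAS1.

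The 2 effects were compared directly in 1 fit of all 15 libraries, by subtracting the log2 fold change of knockdown from that of dBRD9-A. It called 4 members higher and 14 lower, against 17.5% higher and 19% lower of all 14560 genes tested. Without EPAS1 and CA9, 4 were higher and 12 lower. The difference was -4.67 for EPAS1, as a description, -3.58 for CA12 (SE 0.18, edgeR adjusted p = 6.94e-11), -1.77 for ADM (SE 0.08, adjusted p = 1.9e-11) and -1.24 for SLC2A3 (SE 0.18, adjusted p = 3.41e-05). ENO2, P4HA2 and MXI1, picked after their values were seen, passed as lower with dBRD9-A and as higher with knockdown, and their differences were -0.79, -0.62 and -0.56 (edgeR adjusted p = 2.78e-05, 4.59e-05 and 0.000141). The count of higher members was 9 without shRenilla replicate 2, and 2 without DMSO replicate 3 or dBRD9-A replicate 1. Compound and hairpin also differ in time, in the virus and in the control, and these cannot be told apart in this contrast.

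The 2 controls also differed from each other. With shRenilla, 6 members were higher and 13 lower than with DMSO, against 27.9% higher and 26.6% lower of all genes. ADM had 35.1, 34.8 and 36.2 CPM with shRenilla and 156, 158 and 161 CPM with DMSO (log2 fold change -2.16, SE 0.06, edgeR adjusted p = 2.75e-15). NDRG1 had 14.3, 16.9 and 15.7 CPM with shRenilla and 51.3, 53.6 and 55.7 CPM with DMSO (-1.78, SE 0.09, edgeR adjusted p = 5.91e-12). Both genes lay far lower in the infected control. CA12 had 8.91, 7.31 and 8.95 CPM with shRenilla and 4.67, 3.77 and 3.12 CPM with DMSO, with a 2.17-fold higher level (SE 0.13 on the log2 scale, edgeR adjusted p = 9.5e-07). SLC2A3 had 6.57, 6.59 and 6.29 CPM with shRenilla and 2.78, 2.87 and 3.70 CPM with DMSO, and was higher by 1.06 (SE 0.14, edgeR adjusted p = 3.95e-06). None of the 4 genes had overlapping groups.

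Other genes of the pathway were read from 2 further lists, also chosen with earlier results of these data known. Of 43 other hypoxia response genes, 40 were tested after knockdown, and 20 were higher and 6 lower, against 22.5% and 22.1% of all genes tested, with a median log2 fold change of 0.25 (-0.01 over all genes). Among them, HIF3A, PPP1R3C and STC2 held 0, 17 and 22 counts in all shRenilla libraries together. They passed the filter on low counts through the hairpin groups, so the knockdown counts and median of this list are descriptions. DDIT4, an inhibitor of the growth kinase mTORC1, had 232, 248 and 239 CPM in shSS18-SSX1-1, 174, 188 and 180 CPM in shSS18-SSX1-2, and 25.4, 35.3 and 29.4 CPM with shRenilla (log2 fold change 2.78, edgeR adjusted p = 6.98e-11). ANGPTL4, which restrains lipoprotein lipase, was at 2.92 and VLDLR, a lipoprotein receptor, at 1.5. After dBRD9-A, 6 of 36 tested were higher and 10 lower, against 17.7% and 18.2% of all genes, with a median of -0.04 (0.01 over all genes). TFRC, the transferrin receptor, was at -0.49 (edgeR adjusted p = 1.29e-14) and HMOX1, a heme-degrading enzyme, at 0.48 (edgeR adjusted p = 5.17e-05). FUT11 and KDM4C were at 0.41 and -0.37.

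Of 30 other genes of glucose metabolism, 26 were tested after knockdown, and 11 were higher and 1 lower, against 22.5% and 22.1% of all genes, with a median of 0.06. HKDC1 held 29 counts in shSS18-SSX1-1, 37 in shSS18-SSX1-2 and 0 with shRenilla. It passed the filter on low counts through the hairpin groups, so the knockdown counts of this list are descriptions. TKT, of the pentose phosphate path, was at 0.60 (edgeR adjusted p = 8.5e-06). PYGL and GBE1, which break down and branch glycogen, were at 0.60 and 0.59, and PDHB, a subunit of pyruvate dehydrogenase, at 0.48 (edgeR adjusted p = 0.0021, 0.000601 and 7.15e-05). After dBRD9-A, 3 of 25 were higher and 3 lower, against 17.7% and 18.2% of all genes, with a median of 0.00 and values between -0.19 and 0.20. PFKFB2, a relative of PFKFB3, was the highest at 0.20 (edgeR adjusted p = 0.0077).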

How the data were processed

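RNA of 15 HSSYII libraries was measured. Reads were aligned to hg19 (GRCh37), and the authors deposited raw counts per transcript; the submitters' processing notes name STAR and featureCounts. Neither their versions nor the strand setting were given in the sources used here. 1 table had 4535 symbols broken across columns, which were rejoined, and 78 of 80 symbols turned into dates were restored from RefSeq names; no member was among them. The methods name ERCC spike-ins, of which the tables hold 0 rows. Exons of 18 of the 38 members overlap a gene on the opposite strand in GENCODE on GRCh37, HIF1A with HIF1A-AS1 and P4HA2 with P4HA2-AS1 among them, and unstranded reads of such overlaps cannot be told apart.

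One row per symbol was kept, the one with the highest count sum. Genes were filtered at a minimum count of 10 (filterByExpr), scaled by trimmed means and tested with edgeR 4.0.16 (robust quasi-likelihood, R 4.3.3) on group means: 6 libraries for dBRD9-A, 9 for knockdown, and all 15 for comparisons across experiments. The scripts were tested on simulated data. Intervals are exact binomial at 95% and cover counting error only. Alternatives used DESeq2 1.42.0, limma 3.58.1, other scalings and filters, summed rows, a replicate block and each library left out. Named members are 8 fixed ones and, with a mean of at least 5 CPM, those past the threshold with the largest change: 8 for each main comparison and 4 for the others and for the other lists. The members and lists were chosen with earlier results of these data known. A gene of the other lists that this rule names is not reported here.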

Additional observations from a re-analysis of the deposited data

Results flagged for a closer look

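The dBRD9-A effect and the knockdown effect differed by edgeR's test of the difference (log2, dBRD9-A minus knockdown, all 15 libraries) for 14 members described by library in the report. CA9 (-4.80) and EPAS1 (-4.67) entered that fit through the hairpin groups, so their differences are descriptions only; CA9 had 1 count in all dBRD9-A libraries and 3 in all DMSO libraries, and did not pass without DMSO replicate 1 (-3.95, adjusted p = 0.177). The difference was -3.58 for CA12, -1.77 for ADM and -1.24 for SLC2A3, the genes that led the knockdown. It was -0.79 for ENO2, -0.72 for BNIP3L, -0.62 for P4HA2 and -0.62 for VEGFA. It was -0.56 for MXI1, -0.55 for KDM3A and -0.39 for P4HA1. It was 0.48 for NDRG1 and 0.33 for PFKP, both higher in the dBRD9-A effect; PFKP (adjusted p = 0.0328) did not pass without DMSO replicate 1 or 3, dBRD9-A replicate 1 or 2, or shRenilla replicate 3.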

How the results depend on the processing

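Of 5273 values of single members under alternatives, 4988 kept direction and side of the threshold, 198 lost the call, 87 gained it and 0 reversed. Members called higher with dBRD9-A (5) were 9 under upper quartile scaling and under total count scaling, 3 with no filter on low counts and 1 in the fit of all 15 libraries; members called lower (9) were 4 in that fit, whose dispersion also covers the knockdown libraries. Members called lower with shSS18-SSX1-2 (4) were 2 under upper quartile scaling. For shSS18-SSX1-2 over shSS18-SSX1-1, where 0 and 0 were called, 1 was higher and 1 lower with DESeq2 and with no filter on low counts, and 2 were higher and 1 lower in the fit of all 15 libraries. With 1 library left out, the counts ranged between 2 and 8 (dBRD9-A, higher), 3 and 10 (knockdown, lower), 3 and 11 (shSS18-SSX1-1, lower), 0 and 7 (shSS18-SSX1-2, lower), 0 and 1 (second over first hairpin, lower), and 2 and 9 (difference of effects, higher). EPAS1 with dBRD9-A passed under limma with voom (adjusted p = 0.0184). The causes of these moves were not tested.

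Whether the replicate numbers pair the samples cannot be settled from 3 libraries per group. Deviations of same-numbered libraries correlated between -0.01 and 0.01 for dBRD9-A with DMSO and between -0.24 and -0.16 for shSS18-SSX1-1 with shRenilla. The correlations were between -0.05 and 0.22 for shSS18-SSX1-2 with shRenilla, and between -0.275 and 0.103 for shSS18-SSX1-2 with shSS18-SSX1-1. With the replicate block, members called were 6 higher and 9 lower with dBRD9-A, 11 higher and 7 lower with knockdown, and 2 higher and 13 lower in the difference of effects, against 4 and 14 without it. The block ended the knockdown calls of P4HA2 (adjusted p = 0.0716) and MXI1 (adjusted p = 0.068) and the difference call of PFKP (adjusted p = 0.0655), and EPAS1 with dBRD9-A passed (adjusted p = 0.0477). Depth limits CA9 and EGLN3 in the first experiment: the counting intervals of their dBRD9-A over DMSO ratios reach up to 3.84 for CA9 and 2.56 for EGLN3.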

Other observations

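HIF3A, another alpha subunit, was at 1.495, 1.14 and 1.19 CPM in shSS18-SSX1-1, 0.909, 0.788 and 1.23 CPM in shSS18-SSX1-2, and 0 CPM in all 3 shRenilla libraries. Its dBRD9-A libraries were at 0.0421, 0 and 0 CPM and its DMSO libraries at 0.0449, 0 and 0 CPM. HK2, a hexokinase that binds mitochondria, was 157 to 165 CPM with dBRD9-A and 157 to 161 CPM with DMSO, and 76.8 to 89.5 CPM with the hairpins and 79.5 to 90.1 CPM with shRenilla. EGLN3 was 0.0399 to 0.210 CPM with dBRD9-A and 0.0898 to 0.144 CPM with DMSO, against 1.121 to 1.596 CPM with shRenilla.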
